A study of Mus musculus with 14 samples.

Results

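The mitochondrial ribosomal protein genes were followed through the kidneys of female mice that had been born at term or preterm and had or had not been given streptozotocin (STZ). They were taken as the protein-coding genes whose mouse symbol is Mrpl or Mrps followed by a number and at most one letter, with a total above 10 counts over the 14 libraries. The rule found 78 symbols in the annotation. All but Mrpl53, which had 0 counts in every library, passed the minimum, so that 77 genes of the 22339 above it were members. The rule uses symbols and total counts, not differences between groups, but the set was chosen with earlier results of these data known. Of the 77 genes, 48 carry an Mrpl symbol and 29 an Mrps symbol.

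Mitochondria make a small number of their own proteins, all of them core subunits of the respiratory chain and ATP synthase, on a ribosome that is built from RNA of the mitochondrial genome and from proteins of nuclear genes. The proteins are made in the cytosol and imported, so a mitochondrial ribosome needs the products of both genomes. Some have homologues in bacterial ribosomes and others are found only in mitochondria. The kidney, and its proximal tubule above all, is among the tissues richest in mitochondria.

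By symbol and by textbook role, 50 of the 77 proteins belong to the large subunit and 26 to the small subunit. Mrps18a and Mrps30 are counted with the large subunit, where their proteins sit in spite of the symbol. Mrps36 is kept apart, because its protein is a component of the ketoglutarate dehydrogenase complex and not of the ribosome. A bacterial homologue is known for 46 and the other 30 ribosomal members are specific to mitochondria. The genes lie on 17 chromosomes, with 11 on chromosome 11 and 8 on chromosome 17.

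The mice were wild-type CD-1 females, an outbred stock, killed at 18 weeks of age, and each gave 1 library from a whole kidney. Term mice were born naturally at 20 days post conception and stayed with their mothers, and preterm mice came by Caesarean section after 19 days and grew up with foster mothers whose water had held acepromazine. STZ, which destroys the insulin-producing cells of the pancreas, was injected from 6 weeks of age at 50 mg/kg on 5 days. The groups were term without STZ (T-ND, n = 4), term with STZ (T-D, n = 4), preterm without STZ (PT-ND, n = 3) and preterm with STZ (PT-D, n = 3). All mice received cationic ferritin before the kidneys were taken, and some PT-D mice of the study, but no T-D mouse, had a second round of STZ. Preterm birth cannot be told apart here from the Caesarean delivery, the fostering or the acepromazine. Nor can it, in PT-D against T-D and in the interaction, be told apart from the second round of STZ. In whole kidney, fewer cells of a type and less RNA per cell cannot be told apart either.

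The libraries held 16697246 to 28673176 counts on genes. All 10 proximal tubule markers had counts in every library, among them the phosphate transporter Slc34a1 at 2211 to 4834 CPM (counts per 1000000 counts of the library). The members were well measured, with totals from 1343 counts for Mrpl33 to 67820 for Mrpl12, a median of 12668, and no count below 58 in any library. Levels below are CPM after TMM scaling, which corrects for depth and for a few dominant genes, and compare one gene between libraries.

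Sequence around the annotated start is shown for members with some of the smallest p-values, because nuclear genes of the mitochondrial ribosome are known to carry binding sites of ETS-family factors such as GABP near their starts. The letters CCGGAAG, on either strand, were found between 250 bases before and 50 bases after the start of the canonical transcript in 23 of the 77 members (29.9%) and in 12.8% of the 16165 protein-coding genes above the count minimum. Of the 15 genes looked at, 5 held 6 such sites. The canonical start can lie inside the outer bounds of a gene given further on, where another transcript starts further out, as in Mrps12 and Mrpl23. Sites are printed in GRCm39, on the strand of the gene, 5′ to 3′, with the motif in capitals (CTTCCGG where it lies on the opposite strand).
Mrpl22, chr11:58062426-58062455, 38 bases before the start: cttttccggtcCCGGAAGccggcctcggac
Mrps34, chr17:25114032-25114061, 29 bases before the start: cgttcctgaagCTTCCGGacgtacccggat
Mrps34, chr17:25114074-25114103, 14 bases after the start: gacaccggccgCTTCCGGaacgggagagct
Mrps12, chr7:28441227-28441256, minus strand, 24 bases after the start: aaggaggaaccCCGGAAGgggctggaggta
Mrpl57, chr14:58063688-58063717, 33 bases after the start: gccccagagagaCCGGAAGcagcgcgccgc
Mrps26, chr2:130405652-130405681, 6 bases after the start: ctccgcggccaCTTCCGGgccgggcgcagg
The sites lie on both sides of the start and on both strands. The motif was absent from the 120 bases before the canonical start of Mrpl23, whose RNA fell in PT-D as that of Mrpl22 did, and both stretches are given for comparison, with the site of Mrpl22 in capitals.
Mrpl22, chr11:58062355-58062474: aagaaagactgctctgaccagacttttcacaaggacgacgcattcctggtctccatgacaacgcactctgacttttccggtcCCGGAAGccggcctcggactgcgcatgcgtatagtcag
Mrpl23, chr7:142086629-142086748: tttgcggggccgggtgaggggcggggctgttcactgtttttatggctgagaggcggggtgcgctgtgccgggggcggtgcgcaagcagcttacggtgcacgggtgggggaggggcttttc
The stretch of Mrpl23 is richer in G and C, at 68.3% against 55% for Mrpl22. Exact matches to an NRF1 motif were found in 1 member (1.30%, against 1.48% of all) and to a YY1 motif in 2 (2.60%, against 0.724%). Another feature of position was commoner: 27 members (35.1%) had the start of a protein-coding gene on the other strand within 1000 bases, against 11.4% of all. These are matches of letters and not measured binding.

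The summed level of the 77 genes set the PT-D kidneys apart. It was 4040.7, 4101, 3441 and 3721 CPM in the 4 T-ND libraries and 3794, 4056, 4561 and 6623 CPM in the 4 T-D libraries. The 3 PT-ND libraries stood at 3676, 4276 and 5276 CPM and the 3 PT-D libraries at 3182, 3120 and 2673 CPM. All 3 PT-D libraries lay below each of the other 11. As mean and SD the levels were 3826 ± 306 CPM in T-ND, 4758 ± 1283 in T-D, 4409 ± 809 in PT-ND and 2991 ± 278 in PT-D. T-D replicate 4 stood highest of the 14 libraries for 68 of the 77 genes and PT-D replicate 3 lowest for 57. The ratio of large-subunit to small-subunit CPM ran from 2.43 to 2.64 over the libraries.

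**Figure D1:**
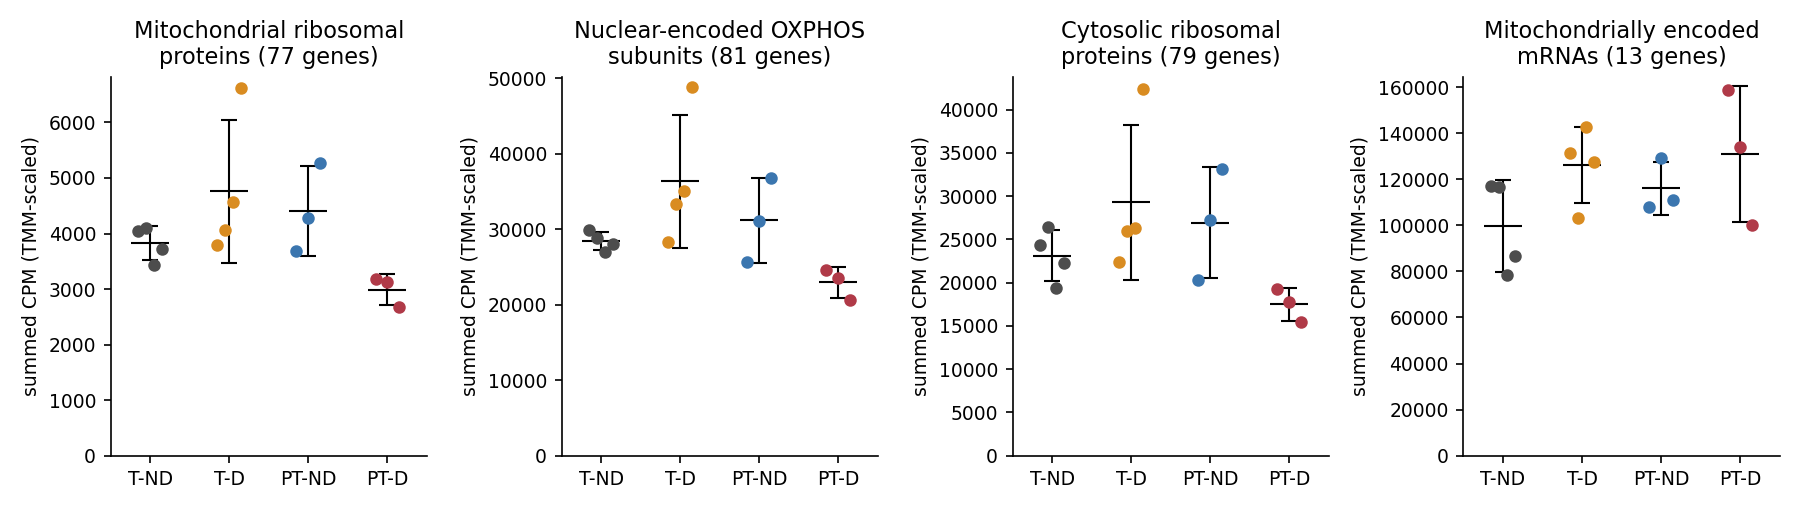
Summed CPM per library (points) with mean and SD (bars) for the 77 mitochondrial ribosomal protein genes, 81 nuclear subunits of oxidative phosphorylation, 79 cytosolic ribosomal proteins and 13 mitochondrially encoded mRNAs in T-ND, T-D, PT-ND and PT-D. The 3 PT-D libraries lie lowest in the first 3 panels, at 2673 to 3182 CPM in the first, and T-D replicate 4 lies highest at 6623; in the fourth panel the PT-D libraries overlap the others.

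The genes moved together from library to library. Over the 14 libraries the log2 CPM of a member correlated with the mean of the other members at a median r of 0.93, and within groups at 0.90. In 48 of the 77 r was above 0.9. Mrpl33, at −0.24, and Mrps27, at 0.31, were the 2 below 0.5. These correlations are descriptions over libraries that share their scaling and their groups.

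The comparison of PT-D with PT-ND asked what STZ went with in mice born preterm. Here 76 of the 77 genes were fitted lower in PT-D, and 29 fell (edgeR, adjusted p under 0.05 over all genes), which is 37.7% of the members where 5.78% of all genes tested fell. No member rose, where 7.14% of all genes did. The median log2 fold change of the 77 was −0.57, a level of 0.675 times that of PT-ND, and the median of all genes was 0.05. The groups did not overlap, with PT-D lower, for 51 members (66.2%), where the share among all genes was 15.8%. The number called rested on single libraries: it was 0 without PT-D replicate 3, 1 without PT-ND replicate 3, 2 without PT-ND replicate 2, 12 without PT-D replicate 2 and 47 without PT-ND replicate 1. The median stayed between −0.70 and −0.41 with any library left out.

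The genes that fell in PT-D against PT-ND came from both subunits. Of the large-subunit genes 17 of 50 fell, with a median of −0.57 over the 50, and of the small-subunit genes 11 of 26 fell, with a median of −0.56. The remaining one was Mrps36. Among members with a bacterial homologue 19 of 46 fell (median −0.59), and among those specific to mitochondria 9 of 30 (median −0.54). The 17 were Mrpl2, Mrpl4, Mrpl11, Mrpl12, Mrpl13, Mrpl17, Mrpl18, Mrpl22, Mrpl23, Mrpl28, Mrpl32, Mrpl44, Mrpl46, Mrpl48, Mrpl51, Mrpl54 and Mrpl58. The 11 were Mrps7, Mrps11, Mrps12, Mrps14, Mrps15, Mrps16, Mrps21, Mrps24, Mrps26, Mrps34 and Mrps35.

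Mrps12 (ENSMUSG00000045948.9, chr7:28439066-28441680, minus strand, GRCm39) encodes the homologue of bacterial S12, which lines the site where codons are read. It stood at 36.4, 37.4, 36.6 and 39.3 CPM in T-ND and at 37.001, 47.8, 51.7 and 71.7 CPM in T-D. In PT-ND it stood at 39.96, 48.2 and 65.3 CPM and in PT-D at 26.2, 30.4 and 22.4 CPM. Every PT-D library was below every other library, and T-ND spread least of the groups. Its log2 fold change in PT-D against PT-ND was −0.96 (SE 0.20, edgeR adjusted p = 0.014), and it was called in 10 of 10 refits with other settings and with 5 of 6 libraries left out in turn, but is short of the study's further cut at a log2 fold change of 1. Its groups also overlapped nowhere in PT-D against T-ND (−0.51, SE 0.13, edgeR adjusted p = 0.0603) or against T-D (−0.99, SE 0.23, 0.0706), but neither passed.

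Mrps16 (ENSMUSG00000049960.5, chr14:20439372-20443713), the homologue of bacterial S16 and a gene of inherited mitochondrial disease in people, had the lowest fold change of this comparison at −0.97 (SE 0.22, edgeR adjusted p = 0.0199). Its levels were 39.998, 38.1, 32.2 and 34.96 CPM in T-ND, 40.1, 40.3, 46.6 and 63.9 in T-D, 35.9, 45.2 and 59.8 in PT-ND and 26.7, 27.5 and 17.6 in PT-D. PT-D replicate 3 was the lowest of the 14 and no PT-D library reached another group. Mrps34, a small-subunit protein specific to mitochondria, gave 12.4, 11.9 and 13.5 CPM in PT-D against 17.3, 21.5 and 34.96 in PT-ND (−0.96, SE 0.24, edgeR adjusted p = 0.0271). Its 3 PT-ND values spread widely. Only 23.2% of the reads that strand-wise counting gives to Mrps34 were kept in the unstranded counts, since the rest overlap another gene.

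In the large subunit, Mrpl23 (ENSMUSG00000037772.14, chr7:142086423-142094486), whose bacterial homologue sits at the mouth of the tunnel through which new chains leave, was the only member that fell in PT-D against T-ND. It stood at 35.5, 36.2, 31.6 and 32.4 CPM in T-ND, 28.4, 33.5, 38.5 and 58.2 in T-D, 32.3, 38.9 and 48.3 in PT-ND and 25.02, 21.9 and 20.9 in PT-D. All PT-D values were below all others. The fold change was −0.82 against PT-ND (SE 0.18, edgeR adjusted p = 0.0158) and −0.59 against T-ND (SE 0.12, edgeR adjusted p = 0.041). The call against T-ND held with 1 of 7 libraries left out in turn.

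Mrpl12 (ENSMUSG00000039640.8, chr11:120375430-120381396) encodes the protein of the flexible stalk that recruits translation factors, and its protein has also been described to bind the mitochondrial RNA polymerase. It had the most counts of the 77. In T-ND it stood at 254, 263, 182 and 234 CPM and in T-D at 224, 225, 303 and 399 CPM. The PT-ND libraries gave 256, 245 and 369 CPM and the PT-D libraries 168, 174 and 139 CPM, again below all others. The fold change against PT-ND was −0.86 (SE 0.19, edgeR adjusted p = 0.0172). Mrpl11, at the base of the same stalk, fell from 44.1, 49.5 and 56.9 CPM in PT-ND to 33.9, 32.1 and 26.9 in PT-D (−0.70, edgeR adjusted p = 0.0192). Mrpl10, which joins the stalk to the ribosome, had 54.1 ± 5.07 CPM in PT-D and 82.6 ± 18.7 in PT-ND, and was not among the genes called.

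Some other members with a known task also fell. Of the examples fixed for their role, Mrps2, Mrps22, Mrps30, Mrpl14 and Mrpl45 did not, nor did Mrpl10 above and others below. Mrpl44, which has an RNase III fold, was even in PT-ND at 51.4, 52.2 and 51.6 CPM and stood at 28.9, 38.2 and 31.1 in PT-D (−0.66, SE 0.15, edgeR adjusted p = 0.0194). Mrpl58, a peptidyl-tRNA hydrolase that became part of the large subunit, had 45.1, 45.8 and 52.2 CPM in PT-ND and 39.6, 27.9 and 23.7 in PT-D (−0.65, SE 0.19, edgeR adjusted p = 0.0486). Mrps7, of the head of the small subunit, also fell (−0.62, SE 0.18, edgeR adjusted p = 0.0482). Mrps36, the dehydrogenase component, moved as the ribosomal genes did, from 44.8, 51.9 and 72.1 CPM to 38.9, 35.96 and 25.8 (−0.75, SE 0.21, edgeR adjusted p = 0.0419).

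The members that did not pass included some with levels unlike the rest. Mrpl3, whose protein reaches towards the peptidyl transferase centre, had 46.9, 56.1 and 50.99 CPM in PT-ND and 49.2, 42.0 and 45.7 in PT-D, with a log2 difference of −0.17 (SE 0.14). In T-ND it had 71.0, 87.2, 57.8 and 53.5 CPM, and its difference between PT-ND and T-ND was −0.39 (SE 0.18, edgeR adjusted p = 0.466). Mrps27, a small-subunit protein with RNA-binding pentatricopeptide repeats, had 14.3 ± 2.56, 13.9 ± 2.35, 13.7 ± 1.81 and 12.3 ± 1.57 CPM in T-ND, T-D, PT-ND and PT-D. Mrpl33, a homologue of bacterial L33 and the member with the fewest counts, was the one fitted higher in PT-D, at 7.53, 3.57 and 4.90 CPM against 3.87, 5.09 and 4.11 in PT-ND (0.29, SE 0.32). Its PT-D value of 7.53 lay apart from the other 2. Of the 3 paralogues Mrps18a, Mrps18b and Mrps18c, none passed, at −0.48, −0.31 and −0.24.

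**Figure D2:**
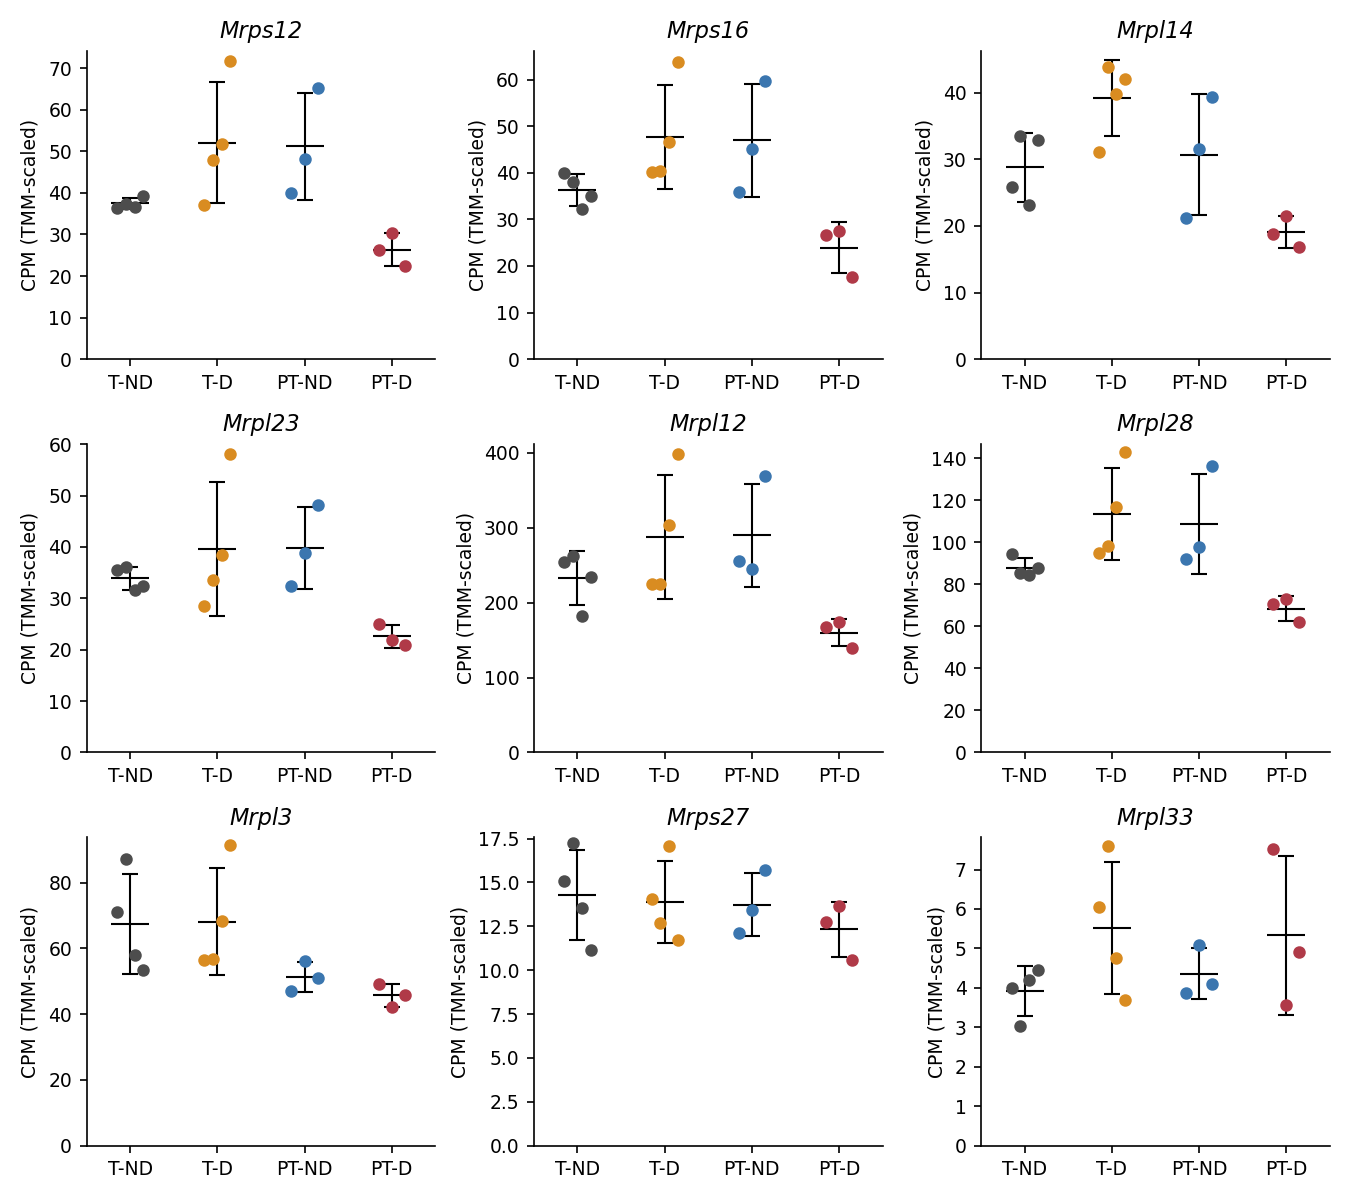
CPM per library (points) with mean and SD (bars) for Mrps12, Mrps16, Mrpl14, Mrpl23, Mrpl12, Mrpl28, Mrpl3, Mrps27 and Mrpl33 in T-ND, T-D, PT-ND and PT-D. In Mrps12, Mrps16, Mrpl23, Mrpl12 and Mrpl28 the 3 PT-D libraries lie below all 11 others, as in Mrps12 at 22.4 to 30.4 CPM, whereas Mrps27 and Mrpl33 overlap.

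The comparison of PT-D with T-D asked how kidneys of STZ-treated mice differed by birth. All 77 genes were fitted lower in PT-D, at a median log2 fold change of −0.68 (0.625 times the T-D level, and 0.06 for all genes). Only Mrpl14 fell, where 0.0583% of all genes did. By unadjusted p under 0.05, 64 members (83.1%) were lower and 10.9% of all genes, and DESeq2 called 41, where it called 10.2% of all genes. For 57 members (74.0%, against 10.6% of all genes) PT-D did not overlap T-D. Without T-D replicate 4 the median was −0.47.

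Mrpl14 (ENSMUSG00000023939.8, chr17:45996373-46010480), of the face of the large subunit that meets the small one, stood at 31.1, 43.9, 39.9 and 42.1 CPM in T-D and at 18.8, 21.6 and 16.8 in PT-D. In T-ND it had 25.8, 33.5, 23.1 and 32.9 CPM and in PT-ND 21.2, 31.5 and 39.4 CPM. PT-D was below T-D and T-ND throughout, and 1 PT-ND library reached down to it. The fold change against T-D was −1.04 (SE 0.18, edgeR adjusted p = 0.0461). The call held with 2 of 7 libraries left out in turn, and 57.0% of the gene's strand-wise reads were kept. The next genes, Mrps12, Mrps16 and Mrpl18, lay between −0.98 and −0.998 with edgeR adjusted p between 0.0706 and 0.0709.

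PT-D against T-ND set the mice with both exposures against those with neither. It was the mildest of the PT-D comparisons, with a median log2 fold change of −0.36 (0.778 times the T-ND level, and 0.03 for all genes). There were 76 members fitted lower, and Mrpl23 was the only one that fell, where 1.15% of all genes did. By unadjusted p under 0.05, 48 (62.3%) were lower against 11.6% of all genes, and DESeq2 called 23, where it called 12.6% of all genes. PT-D did not overlap T-ND for 37 (48.1%, against 11.2%). Without T-ND replicate 3 the count called was 18, and without any other single library it was 0. These comparisons share the PT-D libraries, so their counts are not separate evidence. Just short of the threshold were Mrpl11 (−0.55, edgeR adjusted p = 0.0547), Mrps26 (−0.50, 0.0555) and Mrpl57 (−0.51, 0.0559), the last 2 specific to mitochondria.

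**Figure D3:**
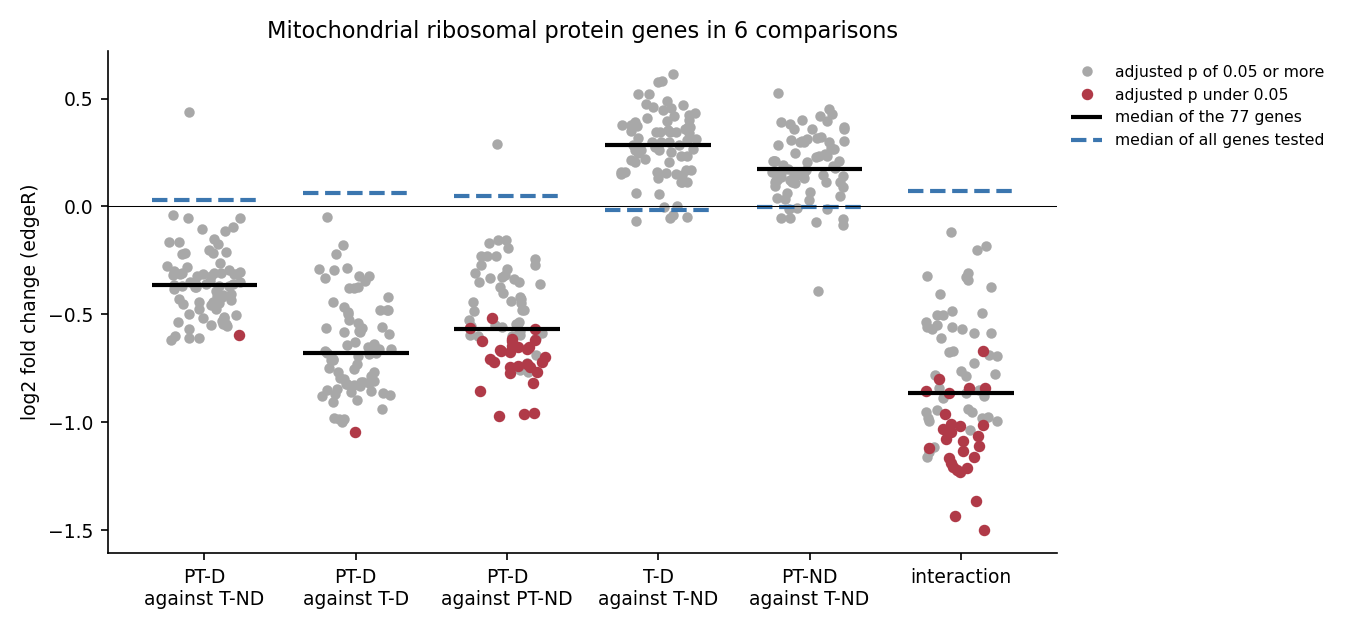
Log2 fold change (edgeR) of each of the 77 genes in 6 comparisons, red where the adjusted p was under 0.05, with the median of the 77 (black line) and of all genes tested (dashed line). The medians were −0.36, −0.68 and −0.57 in the comparisons of PT-D with T-ND, T-D and PT-ND, 0.29 and 0.17 in T-D and PT-ND against T-ND, and −0.86 in the interaction.

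With one exposure alone most members were fitted higher. In T-D against T-ND 72 members were fitted higher, at a median of 0.29 (1.22-fold, and −0.02 for all genes). None passed by edgeR or DESeq2, where 0.0673% of all genes did by edgeR and 2.1% by DESeq2. By unadjusted p 17 were higher (5.57% of all genes), and 9 did not overlap (11.7%, against 2.90%). The median was 0.11 without T-D replicate 4. Mrpl52, specific to the mitochondrial large subunit, was among those with the smallest p at 0.58, with 38.4, 54.4, 55.8 and 87.1 CPM in T-D and 43.1, 38.4, 34.4 and 40.1 in T-ND (edgeR adjusted p = 0.34). In PT-ND against T-ND 68 were fitted higher, at a median of 0.17 (1.13-fold), and none passed by edgeR or DESeq2 (0.0809% of all genes by edgeR and 1.38% by DESeq2). By unadjusted p 8 were higher (5.55% of all genes) and Mrpl3 was lower (5.15%), and 6 did not overlap (7.79%, against 5.48%). The median was 0.05 without PT-ND replicate 3.

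Whether the STZ difference itself differed by birth was tested as an interaction over all 14 libraries. All 77 genes were fitted with a lower STZ effect in preterm than in term mice, at a median of −0.86 on the log2 scale (0.07 for all genes), from −1.50 for Mrps34 to −0.12 for Mrps27. In 28 (36.4%) the interaction passed in edgeR, where 3.41% of all genes passed in that direction, and 21 of these were beyond 1 on the log2 scale, as were 4.45% of all genes in either direction. Of the 28, 18 were of the large subunit and 9 of the small subunit, with Mrps36 as the remaining one. Medians were −0.97 for members with a bacterial homologue and −0.81 for those specific to mitochondria. The smallest p belonged to Mrps12 (−1.43, SE 0.29, edgeR adjusted p = 0.0213), Mrps16 (−1.37, SE 0.30, 0.0252) and Mrpl28 (−1.03, SE 0.24, 0.0286). Mrps12 and Mrps16 were each called in 8 of 9 refits with other settings and with 12 of 14 libraries left out in turn. The number called was 0 without PT-D replicate 3 or PT-ND replicate 3, and 2 or 3 without PT-D replicate 2 or PT-ND replicate 2. It lay between 5 and 13 without PT-D replicate 1, T-D replicate 3 or any one T-ND library. The median stayed between −0.97 and −0.66.

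Mrpl28 (ENSMUSG00000024181.10, chr17:26342469-26345588), homologue of bacterial L28, shows the pattern in its libraries. In term mice it stood at 94.4, 85.6, 84.2 and 87.6 CPM without STZ and at 95.1, 98.4, 117 and 143 CPM with it, and these did not overlap. In preterm mice it stood at 92.1, 97.9 and 136 CPM without STZ and at 70.7, 72.8 and 61.8 CPM with it. The STZ groups thus lay above their controls at term and below them after preterm birth. At term the gap was narrow, with the closest libraries at 95.1 and 94.4 CPM. Mrpl28 was among the genes with the smallest interaction p, and no member passed in T-D against T-ND by edgeR or DESeq2.

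Levels per length spanned a wide range. In T-ND the CPM per kilobase of all annotated exons was highest for Mrpl34, a homologue of bacterial L34, at 107, followed by Mrpl12 at 70.9, Mrpl28 at 52.2 and Mrpl50 at 41.6. It was lowest for Mrpl33 at 0.27, Mrps27 at 1.24, Mrps18c at 1.46 and Mrpl43 at 1.92. Along that order only 9 of 76 neighbouring pairs stood apart by more than the larger of their SDs. The order depends on the length used: per kilobase of the canonical transcript, a choice made after seeing the data, Mrps21 led at 152 and 1 of the top 4 was shared. Of the reads of Mrpl43 16.4% were kept, since it overlaps another gene.

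Shorter members had the lower fold changes in PT-D against PT-ND, but not in every comparison. Over the 77, the log2 fold change of PT-D against PT-ND and the exon length had a Spearman correlation of 0.54 (0.12 over all genes), and with the canonical length it was 0.34 (0.19). The 26 members with the shortest canonical transcripts, of 555 to 1370 bases, had a median of −0.66 and 12 called, and the 26 longest, of 2896 to 7366 bases, −0.46 and 9 called. In T-D against T-ND the 26 shortest had the higher median, 0.35 against 0.26 for the 26 longest. In PT-D against T-ND the 26 longest, at −0.35, lay below the 25 between, at −0.31. Genes in these descriptions share their libraries. With a correction for length and GC content, the median of PT-D against PT-ND was −0.46 in place of −0.57. Then 17 members were called in place of 29. In the interaction the median was −0.73 in place of −0.86 and 6 were called in place of 28.

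Partner genes on the other strand went both ways. Among the members, 27 start within 1000 bases of a protein-coding gene on the opposite strand, Mrpl46 and Mrps11 being partners of each other, and the others have 25 neighbours that are not members. In PT-D against PT-ND the 27 had a median of −0.58 and 9 fell, and the 25 neighbours a median of −0.01 and a range from −1.07 to 1.16. Of all genes tested, 5.78% fell and 7.14% rose. In 21 of 25 pairs the member was fitted below its neighbour. One neighbour fell, Fau beside Mrpl49, which itself encodes a cytosolic ribosomal protein (−0.76, edgeR adjusted p = 0.033). Mitd1, Gga3 and Ppp1r10 rose (1.16, 0.69 and 0.64), beside Mrpl30, Mrps7 and Mrps18b. Sars2, the mitochondrial seryl-tRNA synthetase that starts beside Mrps12, had −0.25, and Tcp1, a chaperonin gene beside Mrpl18, had −0.01, and neither passed. In the interaction the medians were −0.86 and −0.15.

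**Figure D4:**
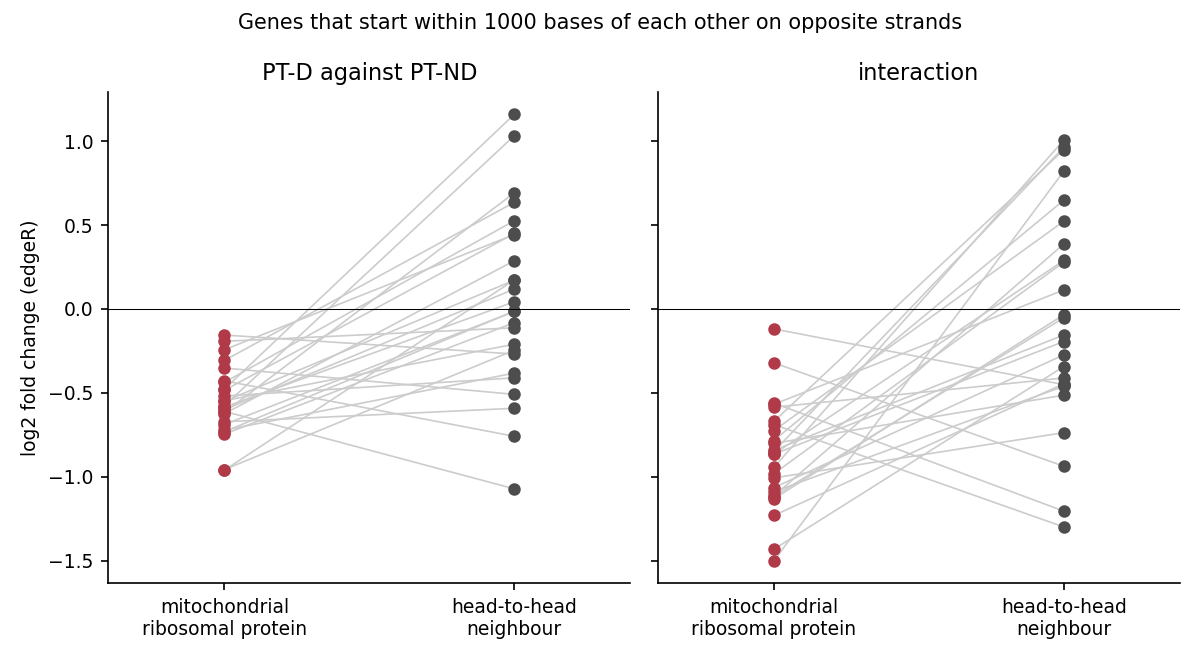
Log2 fold change (edgeR) of mitochondrial ribosomal protein genes and of the 25 non-member genes that start within 1000 bases on the other strand, joined by lines, in PT-D against PT-ND and in the interaction. In each panel the member lies below its neighbour in 21 of 25 pairs.

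Genes that work with the mitochondrial ribosome were read from lists. In PT-D against PT-ND none of 5 ribosomal proteins under other names was called (median −0.34), among them Dap3, a GTP-binding protein of the small subunit, at −0.24 and Ptcd3 at 0.15. Of 13 translation factors 1 fell (median −0.38), of 23 genes for charging mitochondrial tRNA 1 fell (−0.19), and of 26 assembly and rRNA-modifying genes 2 fell (−0.23). None of these rose. These shares are close to the 5.78% of all genes that fell. Of 10 genes for mitochondrial transcription and mRNA upkeep none fell and 2 rose, at a median of 0.02. In the interaction 2 translation factors and 3 assembly genes passed, all lower, where 3.41% of all genes passed in that direction.

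In 2 larger sets more genes fell. Of 81 nuclear subunits of oxidative phosphorylation 17 fell and none rose in PT-D against PT-ND (median −0.56), and of 79 cytosolic ribosomal proteins 29 fell and 1 rose (median −0.66). In the interaction 28 and 20 passed, all lower, where 3.41% of all genes passed in that direction. The 13 mRNAs of the mitochondrial genome had a median of 0.26 in PT-D against PT-ND with 9 fitted higher, and none passed by edgeR. Over the 14 libraries the summed level of the members correlated with that of the cytosolic ribosomal proteins at r = 0.99, of the nuclear subunits at 0.98 and of the mitochondrial mRNAs at 0.18, as a description of libraries that share their scaling.

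Among 9 regulators of mitochondrial biogenesis, Esrra, the oestrogen-related receptor that drives respiratory genes, fell in PT-D against PT-ND. Its level was 124 ± 5.73 CPM in T-ND, 146 ± 16.6 in T-D, 149 ± 23.7 in PT-ND and 93.3 ± 4.88 in PT-D (−0.67, SE 0.16, edgeR adjusted p = 0.0204), and its interaction passed (−0.91, edgeR adjusted p = 0.0244). Pprc1, a coactivator of the same family as PGC-1α, rose in PT-D, at 26.3 ± 1.51 CPM against 12.99 ± 2.44 in PT-ND (1.01, SE 0.18, edgeR adjusted p = 0.00768). Ppargc1a itself, Nrf1, Gabpa and Yy1 were not called, at −0.23, −0.06, 0.42 and 0.40.

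Other measures moved with the level of the members. The number of genes with at least 1 count was 20842 to 21349 in T-ND, 19589 to 21586 in T-D, 20312 to 21307 in PT-ND and 21632 to 22818 in PT-D. Over the 14 libraries it correlated with the summed level of the members at r = −0.87, and within groups at −0.75. T-D replicate 4, with the highest summed level, had the fewest genes. The share of uniquely mapped reads on more than 1 gene, 6.86% to 8.09%, correlated at 0.84, and depth at −0.22. The part of these measures in the results was not tested. RNA integrity, which the paper reports as not different between groups, was not set against the levels here.

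**Figure D5:**
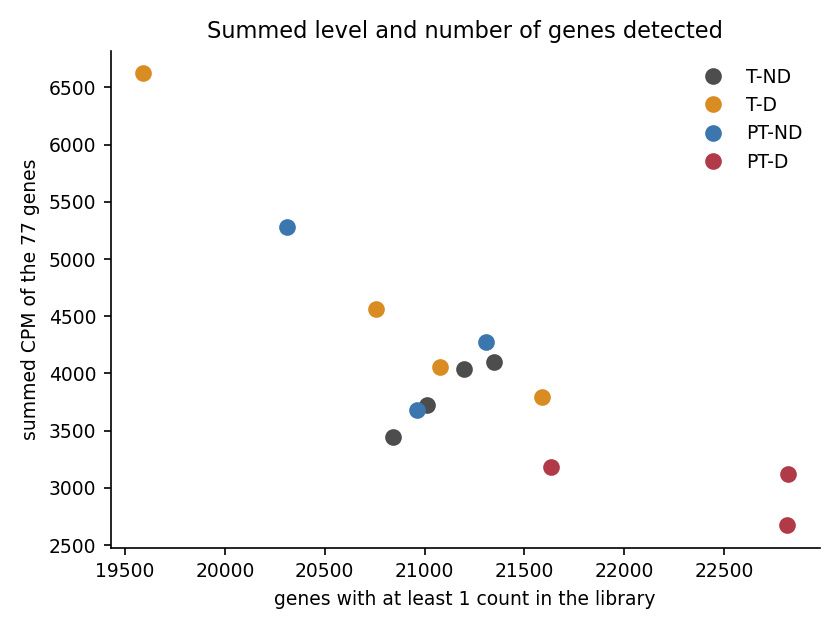
Summed CPM of the 77 genes against the number of genes with at least 1 count, 1 point per library, coloured by group. T-D replicate 4 lies at 19589 genes and 6623 CPM, and 2 of the 3 PT-D libraries lie at 22814 and 22818 genes with 2673 and 3120 CPM.

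Markers of other cells moved too. The 4 podocyte markers summed to 208 to 297 CPM in T-ND, 134 to 421 in T-D, 238 to 415 in PT-ND and 432 to 547 in PT-D, and 3 of 4 rose in PT-D against PT-ND. The 5 endothelial markers summed to 229 to 237, 142 to 226, 151 to 272 and 285 to 328 CPM in the same order, and 2 rose. The 6 leukocyte markers summed to 9.94 to 22.6, 15.2 to 22.2, 14.1 to 23.7 and 25.6 to 33.5 CPM, and 2 rose. The T-cell gene Cd3e was at 0 in 1 library and the B-cell gene Cd79a in 2. Of 4 fibroblast markers, at 76.8 to 198 CPM in PT-D, 1 rose. The 3 red cell genes were fitted higher at a median of 1.59 and none passed, with sums of 10.4 to 116 CPM in PT-ND and 107 to 260.4 in PT-D. The 3 thick ascending limb markers were fitted lower at a median of −0.58 and none passed, and of 5 collecting duct markers 1 fell (median −0.37). The 10 proximal tubule markers had a median of −0.11 and none was called, although their sum, 8561 to 13772 CPM in PT-D, lay below the 14270 to 28196 of the other groups. Kap, an androgen-regulated gene of that list, alone ran from 276 to 21454.5 CPM over the 14 libraries. Sums of the endothelial and podocyte lists correlated with that of the members at −0.91 and −0.75. Those of the fibroblast and proximal tubule lists did so at −0.70 and 0.64. Of the 2 distal convoluted tubule markers 1 was fitted lower and 1 higher, neither was called, and their sum correlated at −0.48. The part of these cells in the levels of the members was not tested.

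Reads of the mitochondrial genome took 10.5 ± 1.77% of counts in T-ND, 12.5 ± 1.48% in T-D, 11.6 ± 1.18% in PT-ND and 14.02 ± 2.91% in PT-D. The CPM of other genes depend on that share and on the TMM factors, so the summed level was also taken without TMM, as a plain share of counts (a choice made after seeing the data) and as a share of the counts outside the mitochondrial genome. The log2 difference of PT-D and PT-ND was −0.55 with TMM, −0.44 as the plain share and −0.40 outside the mitochondrial genome. That of PT-D and T-D was −0.64, −0.47 and −0.45, and that of PT-D and T-ND −0.36, −0.32 and −0.27. PT-D was lower on each of the 3 scales.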

How the data were processed

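Libraries were un-stranded poly-A RNA-seq of whole kidney, 1 per mouse. The authors trimmed the reads, used STAR to align them to GRCm39, and deposited raw counts, for each gene of GENCODE M36, of the reads that mapped to 1 place. Reads on more than 1 gene were not counted. The unstranded counts of the deposited files were used. Groups and replicate numbers came from the labels. Symbols, lengths and positions came from GENCODE M39. Of 56980 gene IDs, 31972 matched with their version and 56236 without.

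Genes with totals of 10 or fewer were left out. For each of 5 pairs only the libraries of both groups were fitted, and for the interaction all 14, in edgeR 4.0.16 (R 4.3.3) with TMM normalization, the two-sided quasi-likelihood test and Benjamini-Hochberg adjustment over all genes. A gene is called, or said to fall or rise, at an adjusted p under 0.05. The study used DESeq2 and also required a log2 fold change beyond 1. Both were tried as alternatives, with other normalizations and filters, a joint fit, the library-name suffix as a covariate, a length and GC correction, a replicate block and each library left out. DESeq2 was version 1.42.0. The procedure was tested on simulated data.

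The members and lists were chosen with earlier results of these data known. Genes were named if they had the smallest p in a comparison (10 for PT-D against T-ND and T-D, 3 for the others), stood furthest from the median in the opposite direction (up to 4), or were among the 4 highest or lowest per kilobase. Others are fixed examples of roles. The lists of genes called, the partner genes and the length choice were added after their values were seen. Each library is 1 mouse, and p-values measure the spread between mice. Amino acid sequences, the male libraries and other assays of the study were not used here.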

Additional observations from a re-analysis of the deposited data

Results flagged for a closer look

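In 74 checks of named genes in the groups of 4, in which 1 library in 20 groups would stand out by chance, 7 did. The checks are not independent, since they share their libraries and the genes moved together, so the same library can be counted repeatedly. T-D replicate 4 stood far above the other T-D libraries for 6 genes, at 73.9 CPM for Mrpl18, 40.5 for Mrpl22, 147 for Mrpl34, 44.6 for Mrps10, 90.6 for Mrps15 and 42.2 for Mrps22. It was also the library with the fewest genes detected, 19589. In T-ND, replicate 2 stood above the others for Mrps18b at 19.3 CPM. The STZ effect in preterm mice differed from that at term for the 3 genes named by the interaction, by −1.43 for Mrps12, −1.37 for Mrps16 and −1.03 for Mrpl28 on the log2 scale. These 3 were named for the smallest interaction p, so the differences restate that result.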

How the results depend on the processing

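The direction of the median over the 77 genes held in each of the 6 comparisons under every setting tried, and no setting moved the median of all genes by more than 0.0713. The numbers called did not hold. For PT-D against T-ND (1 called) they were 23 with DESeq2, 4 with upper quartile normalization, 5 with the filterByExpr filter, 3 with no filter and 4 with the library-name suffix. They were 0 with a fold change beyond 1, the joint fit of 14 libraries, the replicate block, or the length and GC correction with the block, and 0 to 18 with a library left out. For PT-D against T-D (1 called) they were 41 with DESeq2, 39 with no filter and 32 with the joint fit, 0 with filterByExpr, the suffix, or the length and GC correction with the block (median −0.42), and 0 to 2 with a library left out. For PT-D against PT-ND (29 called) they were 44 with DESeq2, 46 with no filter, 14 with the joint fit, 17 with the length and GC correction, 15 with this and the block, 0 with a fold change beyond 1, and 0 to 47 with a library left out. For the interaction (28 called) they were 49 with DESeq2, 15 with the suffix, 11 with the replicate block, 6 with the length and GC correction, 0 with this and the block, and 0 to 38 with a library left out. Medians with a library left out ran from −0.41 to −0.29, −0.79 to −0.47, −0.70 to −0.41 and −0.97 to −0.66 in the same order, and from 0.11 to 0.39 and 0.05 to 0.28 for T-D and PT-ND against T-ND, where none was called. Of all genes, DESeq2 called 12.6%, 10.2%, 18.9% and 14.05% in the same 4 comparisons. With no filter 5.96% and 14.9% were called in PT-D against T-D and PT-ND, with the joint fit 5.92% and 9.41%, and with the length and GC correction 10.8% in PT-D against PT-ND and 2.65% in the interaction. In PT-D against T-ND the upper quartile, filterByExpr, no-filter and suffix settings called 3.64%, 6.51%, 4.70% and 4.37% of all genes. The length and GC correction with the block called 11.5% in PT-D against PT-ND. In the interaction the suffix called 4.55% and the replicate block 2.99%. The cause of the changes in the numbers called was not tested.

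Of 1242 values for single named genes, 1127 kept their side of the threshold, 76 passed only in the alternative, 35 no longer passed and 4 changed sign. Mrpl33 in PT-D against T-D ran from −0.40 without PT-D replicate 1 to 0.17 without PT-D replicate 2, and was 0.14 without T-D replicate 2 and 0.019 without PT-D replicate 3. Mrpl10 there was 0.035 with the length and GC correction and the block. Libraries with the same replicate number were not more alike: over 19 pairs r ran from −0.26 to 0.25, and 1 of 14 libraries was closest to its own number, so the block was not used for the reported values. At this depth no member was near the limit of 3 counts.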
